A study of Mus musculus with 6 samples.

Results

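The solute carriers described here are membrane transporters of mouse liver. They were chosen by level, as the genes whose symbol has the form Slc, a number, a and a number, and whose mean over all 6 libraries was at least 5 FPKM (fragments per kilobase of transcript and library total, a level corrected for transcript length and depth). This rule kept 133 of 323 carriers among the 55222 genes of the table, after 12 genes had been set aside by name. The members belong to 38 carrier families, of which the mitochondrial Slc25 family is the largest with 27 members.

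RNA was sequenced from livers of C57BL/6 mice in 3 groups of 2 libraries. Normal livers received neither carbon tetrachloride (CCl4) nor virus, as far as the labels state. The AAV-Ctrl group received CCl4 with a control virus, an adeno-associated virus (AAV). The AAV-shPhpt1 group received CCl4 with a virus whose short hairpin RNA targets Phpt1, a protein histidine phosphatase. CCl4 is a solvent that liver cytochromes turn into a toxic radical, and repeated doses injure the cells around the central veins. The labels give 12.5 ml/kg CCl4 in olive oil, injected into the peritoneum 2 times a week, with harvest 48 h after the last dose and the virus given into a vein after 1 week of CCl4. They give 5 mice per group but not which animals gave the libraries, nor sex, age, viral serotype or the promoter of the hairpin. Effects of CCl4 and of the virus cannot be told apart in comparisons with normal livers, and p-values measure only the spread between these samples.

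Solute carriers move amino acids, sugars, metals, vitamins, nucleotides, organic ions and metabolic acids across the cell surface and the membranes of mitochondria, lysosomes and the Golgi. Hepatocytes use them to take nutrients from portal blood, to share carbon and nitrogen between cytosol and mitochondria and to clear drugs and metabolites. Macrophages and other cells of the liver have carriers of their own, and in bulk tissue fewer cells of a type and less RNA per cell cannot be told apart.

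Library totals recovered from the FPKM steps were 21488841 to 24188029 reads. A member had 13 to 48043 recovered reads in a library, with a median of 956. General hepatocyte markers such as Alb, which encodes albumin, were present in all libraries, and their summed level was 85580 to 146800 FPKM. Most of that sum was Alb, with means of 75630, 74140 and 108500 FPKM in normal, AAV-Ctrl and AAV-shPhpt1 livers, so it says little of the other markers. None of these 8 markers passed the test in any comparison. The summed level of 12 macrophage and monocyte markers was 142 and 108 FPKM in normal livers, against 1099 and 940 in AAV-Ctrl and 646 and 211 with AAV-shPhpt1. Replicate 2 of AAV-shPhpt1 was therefore the low library for these markers among the CCl4-treated ones. Phpt1 itself had 4 and 4 recovered reads in normal livers against 4 and 1 in AAV-Ctrl and 4 and 5 with AAV-shPhpt1, and at this depth a loss of its transcript could not be seen.

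The members' summed level was 7618 and 8151 FPKM in normal livers, against 7213 and 6636 in AAV-Ctrl and 6846 and 7079 with AAV-shPhpt1, which is 0.909% to 1.07% of all FPKM. Slc38a3, a glutamine carrier of the hepatocyte surface, alone made up 16.4% and 17.3% of that sum in normal livers. Its share was 10.6% and 9.74% in AAV-Ctrl but 10.8% and 13.5% with AAV-shPhpt1. The 10 most abundant members held 51.3% to 52.5% of the sum in normal livers and 39.04% to 47.4% in the CCl4-treated ones. They were led, in descending order, by Slc38a3, Slc38a4, Slc25a39, Slc25a5, Slc25a47, Slc25a1, Slc6a13, Slc25a3 and Slc25a23. Of these, Slc25a39, Slc25a5, Slc25a47, Slc25a1, Slc25a3 and Slc25a23 belong to the mitochondrial family.

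All 133 members passed the filter of the test, which asked for a group mean of 1 FPKM or more in any group, and 107 of them had at least 5 FPKM in every library. The 3 members nearest the limit were Slc44a3 (5.15 FPKM), Slc16a11 (5.29) and Slc39a3 (5.32), and the nearest carriers below it were Slc41a1 (4.57), Slc25a26 (4.46) and Slc45a4 (4.43). Of the 190 carriers below the limit, 60 passed the filter and 27 were listed at 0 in every library.

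AAV-Ctrl livers were compared with normal livers to ask how CCl4 with a control virus changed transport genes. Carriers of amino acids (10 members) and of metals and heme (6 members) made up most of the rises. Slc25a47 of the mitochondria, the glutamine carrier Slc38a3 and the organic anion carrier Slc22a28 were among the falls. At an adjusted p under 0.05, 26 of the 133 members (19.6%) were higher and 8 (6.02%) were lower. Among all 13517 genes tested, 18.2% were higher and 2.28% were lower. The share of members that rose is thus close to that of genes at large. The median log2 difference of members was 0.26, against 0.35 for all genes.

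Selection on the mean of all libraries admits carriers that are high in the treated groups alone. Of the 18 members with a normal mean under 5 FPKM, 11 were higher, while 15 of the other 115 were higher and 8 were lower. The 11 include 7 of the 10 amino acid and peptide carriers that rose, and none of the 6 metal and heme carriers. They also include 1 each of the bile acid, carboxylate, mitochondrial and vitamin classes. After each library was centred on its median, the median log2 difference of all genes went from 0.35 to -0.10. Then 14 of the 26 rises and all 8 falls kept their calls, and 5 further members became lower. Leaving out either normal library or either AAV-Ctrl library left 0 members called, except for Slc25a47 without replicate 1 of AAV-Ctrl. With 1 library in a group few genes of the table passed either. The median of the metal and heme class then ranged from 0.35 to 0.68 and that of the amino acid class from 0.23 to 0.52.

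**Figure D1:**
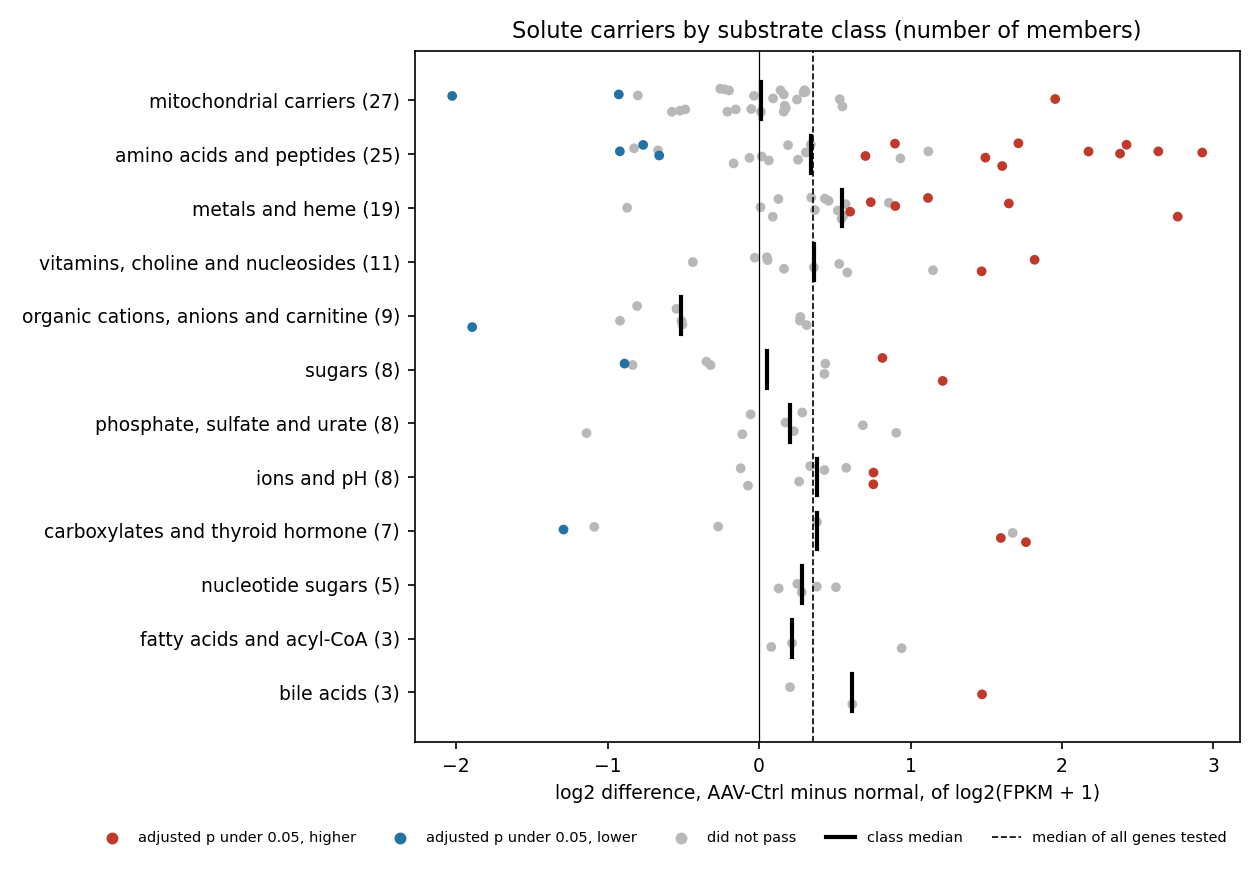
Each point is a member, placed by its log2 difference between AAV-Ctrl and normal livers (horizontal axis, of log2(FPKM + 1)) within its substrate class (rows, with the number of members). Short black lines are class medians and the dashed line is the median of all genes tested, 0.35. Most of the red points (adjusted p under 0.05, higher) are amino acid and metal carriers, and the mitochondrial class sits around 0.01.

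Amino acid and peptide carriers were the class with the most calls, 10 higher and 3 lower of 25 members. Of the 17 with a normal mean of at least 5 FPKM, 3 were higher and 3 were lower, and the other 8 entered through the treated groups. Their median log2 difference was 0.34, and it was -0.11 after median centring, where 8 were higher and 3 lower. Slc7a7 encodes the light chain that exchanges cationic for neutral amino acids. It was measured at 2.45 and 1.90 FPKM in normal livers, against 13.5 and 18.8 in AAV-Ctrl and 15.4 and 8.95 with AAV-shPhpt1. All 4 CCl4-treated libraries lay above both normal ones, with a log2 difference of 2.43 (SE 0.29, adjusted p = 0.0140, 7.45-fold) for AAV-Ctrl. Its exons share 6.998% of their bases with Oxa1l on the other strand. Its heavy chain Slc3a2, which carries such light chains to the cell surface, had 29.7 and 26.5 FPKM in normal livers, against 77.5 and 114 in AAV-Ctrl and 93.1 and 79.2 with AAV-shPhpt1. The groups did not overlap here either, and the rise was 3.42-fold (log2 1.71, SE 0.21, adjusted p = 0.0143). Slc7a8, a second light chain, had 1.19 and 1.21 FPKM in normal livers, against 12.3 and 13.02 in AAV-Ctrl and 5.42 and 1.51 with AAV-shPhpt1. It rose 10.6-fold in AAV-Ctrl (adjusted p = 0.0192), and the AAV-shPhpt1 libraries lay between the other groups.

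The promoters of the next carriers are shown because the genes moved in different directions and belong to different classes. They are the 250 bases before the RefSeq start on GRCm38.p6, written 5′ to 3′ on the gene's strand, with capitals for a match to the C/EBP-ATF response element (TGATGNAA) or the antioxidant response element core (TGACNNNGC) on either strand. The first 3 genes rose in AAV-Ctrl and Slc25a10 fell. The regions are chr14:54417703-54417952 on the minus strand for Slc7a7, chr3:104638414-104638663 on the plus strand for Slc16a1, chr1:74374953-74375202 on the plus strand for Slc11a1, and chr11:120491587-120491836 on the plus strand for Slc25a10.
Slc7a7: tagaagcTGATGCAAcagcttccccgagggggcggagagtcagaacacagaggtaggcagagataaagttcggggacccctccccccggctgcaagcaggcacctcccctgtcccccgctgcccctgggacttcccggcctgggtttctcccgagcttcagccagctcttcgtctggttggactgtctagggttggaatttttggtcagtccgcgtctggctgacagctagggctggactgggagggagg
Slc16a1: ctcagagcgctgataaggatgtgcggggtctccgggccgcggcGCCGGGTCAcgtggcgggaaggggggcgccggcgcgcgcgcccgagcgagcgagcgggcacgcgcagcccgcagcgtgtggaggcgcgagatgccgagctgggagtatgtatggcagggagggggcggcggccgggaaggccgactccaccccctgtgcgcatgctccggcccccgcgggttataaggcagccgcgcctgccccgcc
Slc11a1: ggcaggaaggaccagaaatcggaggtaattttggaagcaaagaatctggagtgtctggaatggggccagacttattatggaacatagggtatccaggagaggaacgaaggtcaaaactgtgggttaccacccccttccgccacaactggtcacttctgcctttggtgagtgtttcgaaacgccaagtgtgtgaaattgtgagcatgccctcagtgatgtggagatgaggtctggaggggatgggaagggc
Slc25a10: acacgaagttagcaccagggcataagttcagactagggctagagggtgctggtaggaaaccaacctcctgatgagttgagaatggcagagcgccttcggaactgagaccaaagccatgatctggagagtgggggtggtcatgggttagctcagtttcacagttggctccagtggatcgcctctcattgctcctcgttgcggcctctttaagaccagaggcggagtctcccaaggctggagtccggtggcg

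Promoters of the RefSeq table matched 102 of the 133 members. Each of these was counted by the promoter nearest to its annotated start. The comparison holds all promoters of that table, several for some genes and for genes at any level, so the sets are not alike. The C/EBP-ATF element was found in 3 of the 102 members (2.94%) against 3.45% of all 32851 promoters of that table. The antioxidant core was found in 21 (20.6%) against 10.2%, and the AP-1 site (TGANTCA), which can overlap it, in 8 (7.84%) against 6.75%. CCAAT was present in 34.3% against 33.8%, and the TATA core (TATAAA) in 2.94% against 12.4%. The members' promoters also had more G and C, with a median of 60.4% against 52.4%. Among members that rose in AAV-Ctrl, 4 of 19 promoters held the antioxidant core, which is 21.1% and close to the share of all members. The C/EBP-ATF element was in 1 of the 19, that of Slc7a7. These are matches of letters, and binding was not measured.

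Further amino acid carriers rose, those beyond the fixed naming rule being named after their values were seen. Slc1a4, an exchanger of small neutral amino acids, had 1.29 and 1.21 FPKM in normal livers, against 12.1 and 9.50 in AAV-Ctrl and 9.57 and 5.77 with AAV-shPhpt1, an 8.65-fold rise in AAV-Ctrl (adjusted p = 0.0129). Its relative Slc1a5, a glutamine exchanger, rose 3.54-fold (adjusted p = 0.0241). Slc43a2, a facilitator of branched-chain and aromatic amino acids, had 1.40 and 2.36 FPKM in normal livers, against 11.6 and 11.99 in AAV-Ctrl and 10.2 and 3.16 with AAV-shPhpt1. It rose 6.29-fold in AAV-Ctrl (adjusted p = 0.0296). Slc6a8, the creatine carrier, rose 3.76-fold, and the lysosomal amino acid carrier Slc36a1 and Slc38a10 rose 1.90-fold and 1.63-fold. Of these, Slc36a1 and Slc38a10 lost their calls after median centring.

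Slc15a3, a peptide and histidine carrier of lysosomes in immune cells, had the largest fitted rise of all members. It was measured at 2.33 and 1.38 FPKM in normal livers, against 19.3 and 21.6 in AAV-Ctrl and 10.2 and 2.05 with AAV-shPhpt1. The log2 difference of AAV-Ctrl from normal was 2.93 (SE 0.57, adjusted p = 0.0263), an 11.01-fold rise. In the annotation 28.1% of its exonic bases are shared with Tmem132a on the other strand, and the library kit is not described as stranded, so reads of the 2 genes cannot be fully told apart. The macrophage markers given above moved with it, with 8 of 12 higher in AAV-Ctrl and none at 0. So did stellate cell and myofibroblast markers, with 8 of 9 higher, and the part of either in its rise was not tested.

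The amino acid carriers that fell in AAV-Ctrl included the most abundant member, Slc38a3. Slc38a3 (chr9:107650634-107669530 in GRCm38) had 1249 and 1412 FPKM in normal livers, against 761 and 646 in AAV-Ctrl and 739 and 955 with AAV-shPhpt1. It was 1.89-fold lower in AAV-Ctrl (log2 -0.92, SE 0.20, adjusted p = 0.0317), and no CCl4-treated library reached the normal range. Slc7a2, a carrier of arginine and other cationic amino acids, had 135 and 176 FPKM in normal livers, against 98.1 and 83.2 in AAV-Ctrl and 128 and 98.7 with AAV-shPhpt1, and was 1.72-fold lower in AAV-Ctrl (adjusted p = 0.0446). Slc16a10, which carries aromatic amino acids, was 1.599-fold lower (adjusted p = 0.0316). Slc38a4, a carrier of neutral amino acids and the second most abundant member, had 459 and 541, 372 and 212, and 376 and 393 FPKM in the 3 groups in that order, and did not pass the test (adjusted p = 0.0731).

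Carriers of metals and heme had 6 of 19 members higher and none lower, with a median log2 difference of 0.54. After median centring the median was 0.09, and 2 members were higher and 1 was lower. Slc11a1, the phagosomal metal carrier of macrophages, had 6.34 and 5.02 FPKM in normal livers, against 45.3 and 43.1 in AAV-Ctrl and 27.2 and 7.59 with AAV-shPhpt1. It rose 7.78-fold in AAV-Ctrl (log2 2.76, SE 0.51, adjusted p = 0.0243). Slc48a1, which moves heme out of lysosomes, had 39.3 and 30.8 FPKM in normal livers, against 102 and 122 in AAV-Ctrl and 79.1 and 64.8 with AAV-shPhpt1. It rose 3.19-fold (adjusted p = 0.0130), and all 4 treated libraries exceeded the normal ones. These 2 were the metal carriers that stayed higher after median centring. The smaller rises were those of the zinc carriers Slc30a7 (2.35-fold), Slc39a11 (1.90-fold) and Slc39a8 (1.596-fold) and of the copper carrier Slc31a2 (1.76-fold). Slc41a2, a magnesium carrier and the second most abundant of the class, ranged from 33.6 to 85.3 FPKM with overlapping groups.

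Carriers of the Slc25 family, nearly all of the inner mitochondrial membrane, had 1 of 27 members higher and 2 lower. Their median log2 difference was 0.01, against 0.35 for all genes. After median centring it was -0.44, with 1 member higher and 4 lower. Slc25a39, the mitochondrial glutathione carrier, had 392 and 365 FPKM in normal livers, against 388 and 374 in AAV-Ctrl and 405 and 417 with AAV-shPhpt1. Its log2 difference in AAV-Ctrl was 0.01 (SE 0.13). Slc25a47, a mitochondrial carrier found mainly in liver, had 462 and 399 FPKM in normal livers, against 147 and 74.1 in AAV-Ctrl and 291 and 311 with AAV-shPhpt1. It was 3.89-fold lower in AAV-Ctrl (log2 -2.03, SE 0.31, adjusted p = 0.0176), and the AAV-shPhpt1 libraries lay between the other groups. Slc25a10, the dicarboxylate carrier that exchanges malate or succinate for phosphate, had 141 and 149, 85.9 and 66.7, and 55.4 and 76.1 FPKM, and was 1.90-fold lower in AAV-Ctrl (adjusted p = 0.0308).

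Slc25a4 encodes the heart and muscle form of the ADP/ATP carrier and was the lone mitochondrial riser. It had 1.66 and 1.59 FPKM in normal livers, against 8.84 and 9.53 in AAV-Ctrl and 6.91 and 7.75 with AAV-shPhpt1. The log2 difference of AAV-Ctrl from normal was 1.96 (SE 0.17, adjusted p = 0.00787), the smallest adjusted p of any member in that comparison, and the fold was 5.65. The general form Slc25a5 had 317 and 312, 354 and 339, and 391 and 280 FPKM in the 3 groups, with a log2 difference of 0.14 (adjusted p = 0.583).

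Organic cation, anion and carnitine carriers had the lowest class median, a log2 difference of -0.51, with none of 9 members higher and 1 lower. After median centring the median was -0.97 with 2 lower. Slc22a28, an organic anion carrier of a mouse gene cluster, had 10.2 and 18.6 FPKM in normal livers, against 3.45 and 2.57 in AAV-Ctrl and 1.23 and 3.03 with AAV-shPhpt1, and was 4.79-fold lower in AAV-Ctrl (adjusted p = 0.0277). Its neighbour in type, Slc22a30, had 111 and 222, 101 and 114, and 66.5 and 130 FPKM, with overlapping groups. Genes of that cluster are close copies, so reads could be split between them and both levels are uncertain. The summed level of 8 pericentral hepatocyte markers was 8270 and 8750 FPKM in normal livers, against 1973 and 1074 in AAV-Ctrl and 637 and 600 with AAV-shPhpt1. Most of the sum in normal livers was Cyp2e1, at 5999 and 6342 FPKM. Of the 7 markers tested 4 were lower in AAV-Ctrl. The means of Cyp1a2 (807 FPKM in normal livers, 846 in AAV-Ctrl) and Axin2 (3.46 and 4.76) were not. Rhbg was under 1 FPKM in every library and at 0 in 1, and the part of these markers in the carriers' levels was not tested.

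Carboxylate and thyroid hormone carriers had 2 of 7 members higher and 1 lower, and the same counts after median centring. Slc16a1, which moves lactate, pyruvate and ketone bodies, had 8.47 and 5.95 FPKM in normal livers, against 21.8 and 25.4 in AAV-Ctrl and 18.8 and 19 with AAV-shPhpt1. It rose 3.27-fold in AAV-Ctrl (log2 1.60, SE 0.19, adjusted p = 0.0140). Slc16a6, known in zebrafish liver as a ketone body exporter, had 5.46 and 4.35, 17.2 and 20.9, and 11.2 and 14.2 FPKM, and rose 3.88-fold (adjusted p = 0.0130). Its exons share 21.5% of their bases with Amz2 on the other strand. The normal mean of Slc16a6 was under 5 FPKM, so it entered through the treated groups. Slc16a11, a monocarboxylate carrier, went the other way, with 7.66 and 10.2 FPKM in normal livers, against 3.20 and 2.87 in AAV-Ctrl and 3.67 and 4.06 with AAV-shPhpt1. It was 2.95-fold lower in AAV-Ctrl (adjusted p = 0.0185).

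Sugar carriers had 2 of 8 members higher and 1 lower. Slc2a2, the high-capacity glucose carrier of hepatocytes, had 96.8 and 154 FPKM in normal livers, against 94.7 and 48.6 in AAV-Ctrl and 90.5 and 97.2 with AAV-shPhpt1, and did not pass the test in AAV-Ctrl (adjusted p = 0.123). Slc2a1, the glucose carrier of most other cells, had 6.18 and 6.30, 10.7 and 12.8, and 11.5 and 7.995 FPKM, and rose 1.89-fold in AAV-Ctrl (adjusted p = 0.0432), a call lost after median centring. Slc45a3 rose 2.53-fold, and that call was lost likewise. Slc2a8, an intracellular hexose carrier, had 13.9 and 13.3, 8.36 and 5.66, and 8.82 and 7.25 FPKM, and was 1.94-fold lower in AAV-Ctrl (adjusted p = 0.0370). Slc37a3 had 17.2 to 31.3 FPKM and did not pass.

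Among 11 carriers of vitamins, choline and nucleosides, 2 were higher and none lower. Slc17a9, which loads nucleotides such as ATP into vesicles, had 5.39 and 7.63 FPKM in normal livers, against 20.8 and 30.4 in AAV-Ctrl and 17.5 and 14.7 with AAV-shPhpt1, a 3.94-fold rise in AAV-Ctrl (adjusted p = 0.0154). Slc44a2, a choline carrier, rose 3.45-fold (adjusted p = 0.0299), a call lost after median centring. The nucleoside carrier Slc29a1 had 56.7 to 124 FPKM and the thiamine carrier Slc19a2 had 44.3 to 67.5 FPKM, each with overlapping groups.

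The bile acid class had 3 members, Slc10a2, Slc10a5 and Slc10a7, placed there by the Slc10 family number whether or not each moves bile acids. Slc10a2 is known for bile acid uptake in ileum and bile ducts. It had 3.41 and 6.48 FPKM in normal livers, against 12.1 and 18.3 in AAV-Ctrl and 24.3 and 14.1 with AAV-shPhpt1. It rose 3.08-fold in AAV-Ctrl (adjusted p = 0.0408), a call lost after median centring. Its normal mean was under 5 FPKM, so it entered through the treated groups. The summed level of 6 cholangiocyte markers was 20.1 and 25.2, 58.8 and 120, and 76.3 and 95.3 FPKM in the same order. Most of that sum was Spp1, 2 of the 5 markers tested were higher and none was at 0, and their part in this result was not tested. Slc10a5 had 10.4 to 15.3 FPKM and did not pass.

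Of 8 carriers of ions and protons, 2 were higher. The bicarbonate carrier Slc4a4 had 19 and 14.6 FPKM in normal livers, against 29.8 and 27.8 in AAV-Ctrl and 31.8 and 35.3 with AAV-shPhpt1, and rose 1.72-fold in AAV-Ctrl (adjusted p = 0.0314). Neither call was kept after median centring. The potassium-chloride carrier Slc12a7 had the highest mean of the class and ranged from 31.5 to 64.6 FPKM. No member passed among 8 carriers of phosphate, sulfate and urate, 5 of nucleotide sugars and 3 of fatty acids and acyl-CoA. Slc17a2, of the phosphate class, had 85.9 and 113 FPKM in normal livers, against 39.6 and 49.4 in AAV-Ctrl and 61.7 and 117 with AAV-shPhpt1, and lay just outside the threshold (adjusted p = 0.0510). It shares a stretch of chromosome 13 with Slc17a1, Slc17a3 and Slc17a4, whose log2 differences in AAV-Ctrl were 0.28, -0.06 and 0.69. The sulfate carrier Slc26a1 had 46.1 to 84.0 FPKM. The nucleotide sugar carriers Slc35a3 and Slc35a1 stayed between 30.8 and 41.6 and between 18.6 and 24.1 FPKM, and the acetyl-CoA carrier Slc33a1 and the fatty acid carrier Slc27a4 between 21.9 and 27.7 and between 14.0 and 18.96 FPKM.

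**Figure D2:**
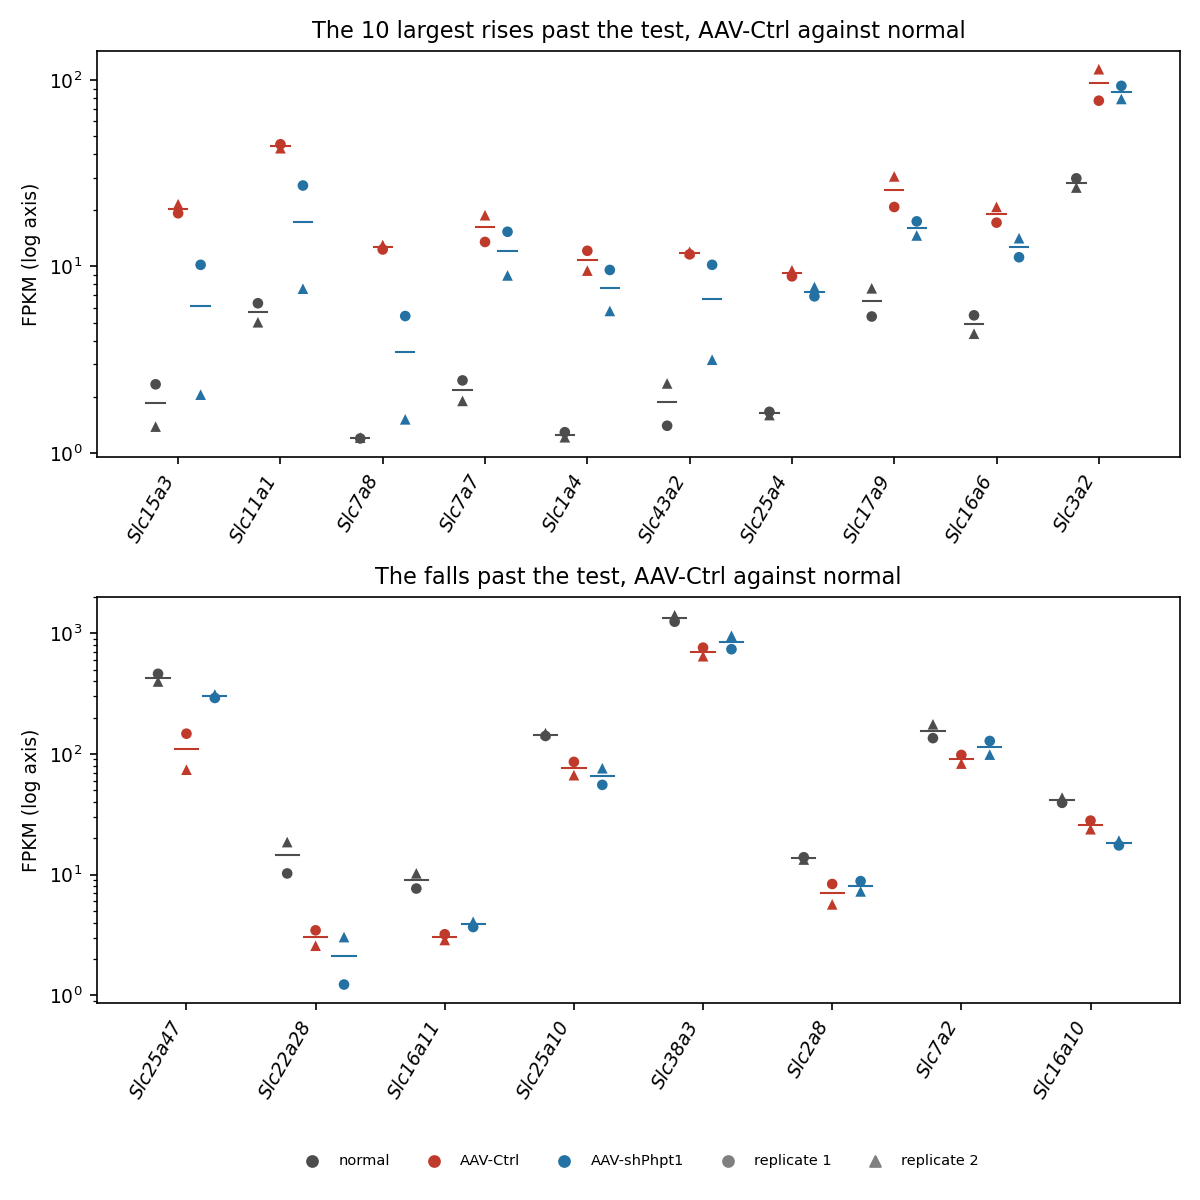
FPKM (log axis) in every library for the 10 largest rises (top) and the 8 falls (bottom) past the test in AAV-Ctrl against normal livers, with circles for replicate 1, triangles for replicate 2 and lines at group means. The AAV-Ctrl and normal libraries do not overlap for any of them, and for Slc15a3, Slc11a1 and Slc7a8 replicate 2 of AAV-shPhpt1 lies near the normal libraries.

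AAV-shPhpt1 livers were compared with AAV-Ctrl livers to ask what the hairpin changed under CCl4. No member passed the test in either direction, and no gene of the table did (0% higher and 0% lower of 13517), with a smallest adjusted p among members of 0.434. At an unadjusted p under 0.05 there were 21 members, which is 15.8%, against 8.48% of all genes, and limma-voom on recovered reads also called 0 members. The groups did not overlap, with AAV-shPhpt1 higher, for 17 members (12.8%, against 11.8% of all genes) and lower for 38 (28.6%, against 26.2%). The members' median log2 difference was -0.12 against -0.07 for all genes. The shares of members whose groups did not overlap are near those of genes at large, and the values below are descriptions of carriers that did not pass.

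The largest downward differences from AAV-Ctrl were those of Slc15a3 (log2 -1.87, SE 0.57), Slc7a8 (-1.77, SE 0.42) and Slc11a1 (-1.54, SE 0.51), whose levels were given above. In all 3 replicate 2 of AAV-shPhpt1 was the lower one, as it was for the macrophage markers, whose median log2 difference was -1.52 with none of 12 past the test. This order was not particular to macrophage markers. Summed stellate cell and myofibroblast markers had 203 and 72.2 FPKM in the AAV-shPhpt1 replicates, and their median log2 difference was -1.31. Summed markers of endothelium, neutrophils, T, NK and B cells and red blood cells were also lower in replicate 2, while summed cholangiocyte markers were higher there. The general hepatocyte sum was lower in replicate 2 too, at 146800 and 102900 FPKM. Single markers could go the other way, such as Alas2 of red blood cells (17.4 and 42.9 FPKM) and Cd14 of macrophages (9.7 and 23.8). Leaving out replicate 1 of AAV-shPhpt1 put these 3 members past the test as lower, among 377 genes called. The organic anion carrier Slc22a7 had 40.4 and 24.8 FPKM in normal livers, against 22.6 and 11.7 in AAV-Ctrl and 5.07 and 8.15 with AAV-shPhpt1 (log2 -1.21, SE 0.38, adjusted p = 0.512). Slc46a3, a carrier of lysosomes, had 56.5 and 67.3, 40.3 and 27.4, and 14.3 and 20.2 FPKM (log2 -0.93, SE 0.24). For Slc22a7 and Slc46a3 replicate 1 was the lower AAV-shPhpt1 library, so these did not follow the order of the macrophage markers.

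The other carriers with large downward differences were Slc43a3, Slc25a45 and Slc43a2. Slc43a3, a carrier of purine bases, had 7.14 and 15.9 FPKM in normal livers, against 25.8 and 24.1 in AAV-Ctrl and 16.6 and 7.62 with AAV-shPhpt1. Slc25a45, a mitochondrial carrier, had 20.7 and 21.2, 29.7 and 32.7, and 12.9 and 19.9 FPKM. Slc25a17, the peroxisomal member of the Slc25 family, was noticed after its values were seen: it had 96.8 and 101, 110 and 111, and 65.5 and 72.2 FPKM, with a log2 difference of -0.68 (SE 0.12, adjusted p = 0.434).

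On the upward side Slc25a47 stood first, with 147 and 74.1 FPKM in AAV-Ctrl but 291 and 311 with AAV-shPhpt1 (log2 1.52, SE 0.31, adjusted p = 0.434). Its AAV-shPhpt1 libraries were close to each other and the AAV-Ctrl libraries were not. The peptide carrier Slc15a2 had 2.12 and 10.04 FPKM in AAV-Ctrl but 10.6 and 11.9 with AAV-shPhpt1, but also 0.526 and 5.19 in normal livers, a spread as wide as the difference. Slc17a2 (log2 0.93), Slc38a4 (0.45), Slc17a1 (0.42), Slc25a16 (0.33) and Slc7a2 (0.31) were the smaller ones. The taurine carrier Slc6a6 had 129 and 123 FPKM in normal livers, against 146 and 155 in AAV-Ctrl and 198 and 197 with AAV-shPhpt1, with the 3 groups in that order and no overlap (log2 0.39, SE 0.12, adjusted p = 0.510).

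**Figure D3:**
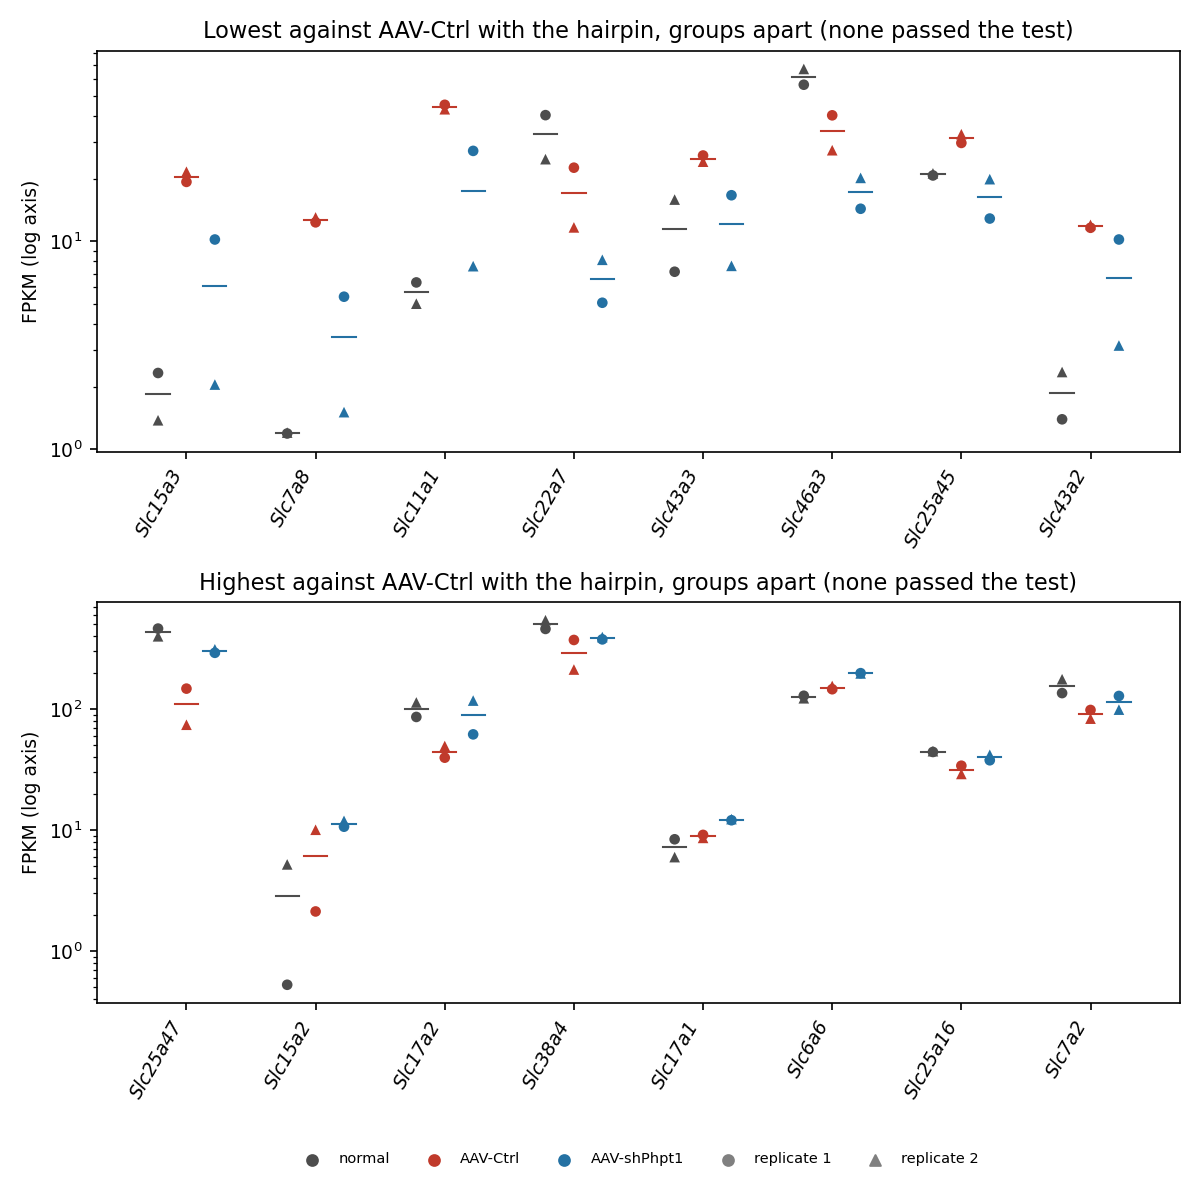
FPKM (log axis) in every library for the 8 lowest (top) and the 8 highest (bottom) members of AAV-shPhpt1 against AAV-Ctrl whose groups did not overlap, with circles for replicate 1, triangles for replicate 2 and lines at group means. None passed the test, and the 2 AAV-shPhpt1 replicates lie far apart for Slc15a3, Slc7a8 and Slc11a1 but close together for Slc25a47 and Slc6a6.

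AAV-shPhpt1 livers were also set beside normal livers, a comparison that shares the normal libraries with the AAV-Ctrl comparison. Here 10 members (7.52%) were higher and 6 (4.51%) were lower, against 3.26% and 1.07% of all genes. Selection on the mean of all libraries acts here too. Slc7a7, Slc1a4, Slc6a8, Slc16a6 and Slc25a4, which are among these rises, had a normal mean under 5 FPKM and entered through the treated groups. The share of members that rose is therefore partly set by the rule. The median log2 difference was 0.22 for members and 0.30 for all genes. After median centring 5 of the 10 rises and all 6 falls kept their calls, with 7 members lower in all. Leaving out either normal library, replicate 1 of AAV-Ctrl or replicate 1 of AAV-shPhpt1 left 0 members called, and without replicate 2 of AAV-Ctrl 4 of the 16 calls remained and 1 further member was called. Leaving out replicate 2 of AAV-shPhpt1 gave 21 higher and 7 lower.

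Amino acid carriers among the rises were Slc7a7 (log2 2.01, adjusted p = 0.0305), Slc1a4 (1.91, adjusted p = 0.0278), Slc6a8 (1.69, adjusted p = 0.0258), Slc3a2 (1.58, adjusted p = 0.0258) and Slc6a6 (0.65, adjusted p = 0.0440). Slc6a8 was measured at 3.39 and 2.996 FPKM in normal livers, against 9.48 and 14.5 in AAV-Ctrl and 11.9 and 13.2 with AAV-shPhpt1. The others were Slc25a4 (4.51-fold, adjusted p = 0.0147), the carboxylate carriers Slc16a1 (2.62-fold) and Slc16a6 (2.59-fold), the heme carrier Slc48a1 (2.05-fold) and the bicarbonate carrier Slc4a4 (2.00-fold). Slc6a6, Slc16a1, Slc16a6, Slc48a1 and Slc4a4 were the rises lost after median centring.

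The falls were led by organic anion carriers. Slc22a28 was 6.77-fold lower than in normal livers (adjusted p = 0.0384) and Slc22a7 was 4.93-fold lower (log2 -2.13, SE 0.38, adjusted p = 0.0418). In AAV-Ctrl, Slc22a7 was 1.90-fold lower than in normal livers and did not pass (adjusted p = 0.124). Slc46a3 was 3.59-fold lower (adjusted p = 0.0268). Slc16a10 was 2.26-fold lower, with 39.4 and 43.5 FPKM in normal livers, against 28.01 and 23.8 in AAV-Ctrl and 17.5 and 19.1 with AAV-shPhpt1, again with no overlap among the 3 groups. Slc16a11 and Slc25a10 were 2.32-fold and 2.20-fold lower.

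Pairs of related carriers were compared as shares of their summed FPKM, the pairs being chosen after values were seen, so no test is given. Slc25a4 made up 0.521% and 0.509% of the ADP/ATP carriers Slc25a4 and Slc25a5 in normal livers, against 2.44% and 2.74% in AAV-Ctrl and 1.74% and 2.70% with AAV-shPhpt1. Slc2a1 made up 6.001% and 3.94% of the glucose carriers Slc2a1 and Slc2a2 in normal livers, against 10.2% and 20.9% in AAV-Ctrl and 11.3% and 7.599% with AAV-shPhpt1. Every CCl4-treated library exceeded both normal ones in these 2 pairs. The aspartate-glutamate carriers of mitochondria likewise had both normal libraries lowest, with Slc25a12 at 7.39% and 6.56%, 10.03% and 18.9%, and 12.6% and 13.4% of the sum with Slc25a13. The copper carriers, whose genes lie 98165 bases apart on chromosome 4, had Slc31a2 at 11.3% and 10.01%, 16.7% and 17.9%, and 17.7% and 14.0% of the sum with Slc31a1. In each of these pairs the form that is less abundant in normal liver took a larger share in the treated libraries and stayed the minor one. Since the pairs were picked with these values known, their agreement is no evidence of a general shift. Slc25a4 also became a member through the treated groups alone.

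**Figure D4:**
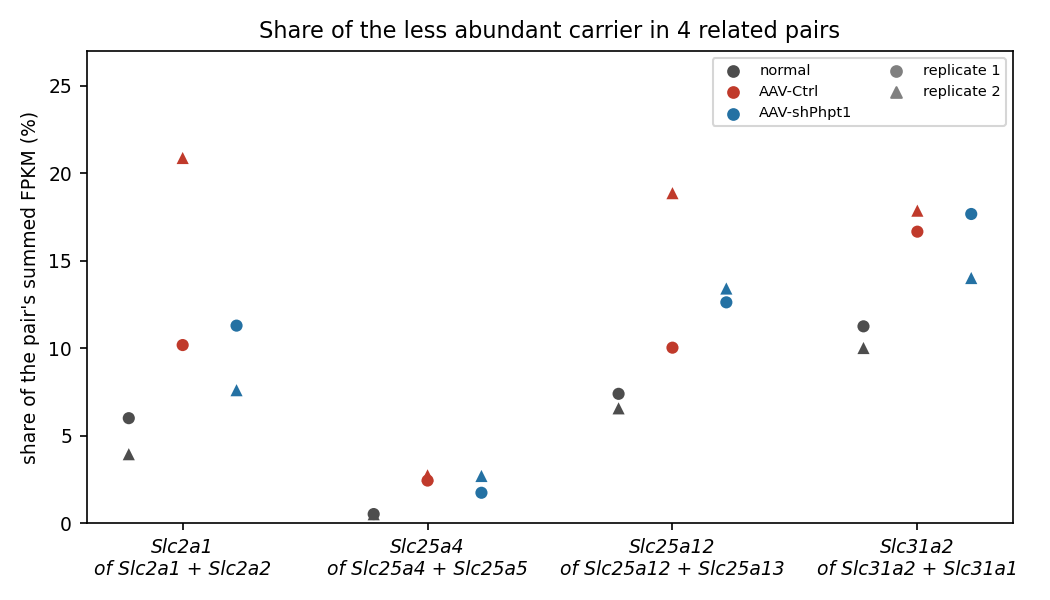
Share of the less abundant carrier in the summed FPKM of 4 related pairs (vertical axis, percent, from 0), with 1 point per library, circles for replicate 1 and triangles for replicate 2. In each pair both normal libraries lie below all 4 CCl4-treated ones, and the AAV-Ctrl replicates are widest apart for Slc2a1, at 10.2% and 20.9%. The pairs were chosen after values were seen.

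Proteins that work with solute carriers formed a list of 22, of which 19 were tested. In AAV-Ctrl against normal livers 1 was higher and 1 was lower, beside 18.2% higher and 2.28% lower among all genes. Their median log2 difference was 0.19, against 0.35 for all genes. The fatty acid receptor Cd36, which macrophages also express, had 1.32 and 1.56 FPKM in normal livers, against 34.6 and 26.2 in AAV-Ctrl and 25.5 and 2.997 with AAV-shPhpt1, and rose 21.1-fold in AAV-Ctrl (adjusted p = 0.0311). Its AAV-shPhpt1 replicates differed in the way the macrophage markers and those of several other cell types did. Slc9a3r1, a scaffold that anchors carriers at the canalicular membrane, had 194 and 212, 126 and 128, and 98.4 and 133 FPKM and was 1.60-fold lower in AAV-Ctrl (adjusted p = 0.0420). None of the 19 passed in the other comparisons.

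Transporters of other solute carrier series, whose symbols have another form, were 29 in number and 25 were tested. In AAV-Ctrl 8 were higher and none lower than in normal livers, beside 18.2% higher and 2.28% lower among all genes, with a median log2 difference of 0.08. The heme exporter Flvcr1 had a mean of 0.983 FPKM in normal livers, against 3.24 and 3.63 in AAV-Ctrl and 3.53 and 2.37 with AAV-shPhpt1 (log2 1.16, SE 0.23, adjusted p = 0.0274 in AAV-Ctrl). Its relative Flvcr2 had 1.12 and 1.27, 3.28 and 4.08, and 6.94 and 4.91 FPKM (log2 1.09, adjusted p = 0.0301), and Slc35f5 had 26.7 and 22.7, 51.8 and 57.0, and 55.8 and 47.5 FPKM (log2 1.11, adjusted p = 0.0155). In all 3 the treated libraries lay above the normal ones, and 4 of the 25 were higher in AAV-shPhpt1 than in normal livers, beside 3.26% of all genes.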

How the data were processed

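Values are from the table the authors deposited for 6 libraries. The header leaves the unit open, but the deposited values are FPKM in their behaviour, since values times transcript length are whole multiples of 1 step per library, with a tolerance of 0.05 reads (96.3% to 96.6% of values). The submitters' processing notes name Bowtie 0.12.2 and builds mm8 and mm9, without their roles; counter and annotation are not given in the sources used. A TruSeq kit on total RNA made the libraries, per the labels. Coordinates and exon overlaps are from GENCODE M21 on GRCm38, and promoters from RefSeq.

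A filter kept 13517 genes (group mean of 1 FPKM or more in any group). The test on log2(FPKM + 1) was limma-trend (limma 3.58.1, R 4.3.3), in 1 fit of 6 libraries with 3 residual and 3.21 prior degrees of freedom. Tests were two-sided, with Benjamini-Hochberg adjustment over all genes. A fold is a ratio of mean FPKM, and SE belongs to the log2 difference. The smallest exact permutation p for 2 against 2 is 0.333. Substrate classes follow the SLC family, except for single genes moved because their substrate differs from that of their family, such as Slc16a10. Alternatives were another pseudocount, no filter, median centring, quantile normalization, limma-voom on recovered reads, fewer libraries and a replicate block.

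The members, lists and tests were chosen with earlier results of these data known. Named genes were the 2 most abundant members per class, the 10 largest non-overlapping called changes each way against normal, the 8 largest each way with the hairpin, the 3 largest of each further list, and the genes nearest the limit. Some members that fall under this rule are not reported here by name.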

Additional observations from a re-analysis of the deposited data

How the results depend on the processing

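Members called in AAV-Ctrl against normal livers numbered 34, and genes 2772. They numbered 21 and 1092 under quantile normalization, 1 and 96 with no filter on low values (28062 genes), and genes 1295 under median centring. In AAV-shPhpt1 against normal livers 16 members and 586 genes were called. They numbered 6 and 202 with only the 4 libraries compared, 5 and 159 with limma-voom on recovered reads, 0 and 4 with no filter, 8 and 236 under quantile normalization, and genes 313 under median centring. The members' median log2 difference of AAV-Ctrl from normal moved from 0.26 to -0.19 under median centring and -0.025 under quantile normalization, and that of AAV-shPhpt1 from 0.22 to -0.13 and -0.013. All genes moved with it, from 0.35 to -0.10 and -0.05 in AAV-Ctrl. With the replicate number as a block, 30 and 11 members and 2162 and 384 genes were called against normal livers, and none with the hairpin. Deviations of same-numbered libraries correlated at 0.07, 0.04 and 0.15, so the numbers are not treated as pairs. Leaving out 1 library at a time gave 0 to 40 members and 6 to 3739 genes for AAV-Ctrl, 0 to 28 and 9 to 2289 for AAV-shPhpt1 against normal, and 0 to 3 and 0 to 377 between the treated groups. With 1 library left in a group, that library is assumed to vary like the others. The 34 and 16 called members kept their direction under median centring and quantile normalization, whereas differences that were not called can change sign there, as the median of the amino acid class did from 0.34 to -0.11 under median centring. Limma-voom called 37 members and 2729 genes for AAV-Ctrl. A pseudocount of 0.1 kept all 50 values that named a member for its change on their side of the threshold. The cause of these differences was not tested. At 13 recovered reads for the least covered member, depth limits the smallest differences seen.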

Other observations

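Members with wide gaps between replicates were singled out after their values were seen. Slc25a30, a mitochondrial carrier, had 93.9 and 58.3 FPKM in normal livers, against 16.2 and 107 in AAV-Ctrl and 24.2 and 55.6 with AAV-shPhpt1. Slc16a5, a monocarboxylate carrier, had 1.04 and 1.12, 11.8 and 2.45, and 13.4 and 3.03 FPKM, with replicate 1 high in both treated groups. Slc13a3, a dicarboxylate carrier, had 13.5 and 10.6, 7.54 and 3.36, and 6.30 and 0.415 FPKM, with both normal libraries above all 4 treated ones. Replicates differed by more than 2-fold for 9 members among normal, 4 among AAV-Ctrl and 13 among AAV-shPhpt1 libraries.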
